A study of Arabidopsis thaliana with 6 samples.

Results

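The genes described here are 7 transcription factor genes that control flavonoid synthesis in Arabidopsis thaliana. They are the flavonol activator genes MYB11 (AT3G62610), MYB12 (AT2G47460) and MYB111 (AT5G49330), the anthocyanin activator genes PAP1 (AT1G56650, also MYB75), PAP2 (AT1G66390, also MYB90) and TT8 (AT4G09820), and the repressor gene MYBL2 (AT1G71030). They were taken by locus code from a table of 20777 loci, and all 7 had a row in it. The study measured seedlings on Affymetrix ATH1 arrays, on which each transcript is read by a set of short oligonucleotide probes. There were 3 arrays of 35S::GRF5 plants, in which the growth-regulating factor gene GRF5 is driven by the strong, broadly active 35S promoter, and 3 arrays of wild-type plants. Both groups were ecotype Col-0 at growth stage 1.03, raised in vitro on MS medium at 22 °C in days of 16 h light and nights of 8 h, and RNA came from the vegetative part. The labels speak of a single overexpressing line and of biological repeats, and do not say whether repeats came from separate cultures, so the p-values measure the spread between these samples.

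Flavonoids are made from phenylalanine through a common set of early enzymes, after which the route divides into flavonols, which screen ultraviolet light, and anthocyanins, the red and purple pigments of stressed or young tissue. MYB11, MYB12 and MYB111 are related R2R3-MYB proteins that switch on the early enzymes and flavonol synthase without a bHLH partner. PAP1 and PAP2 are R2R3-MYB proteins that bind bHLH proteins such as TT8 and the WD40 protein TTG1, and this MYB-bHLH-WD40 (MBW) complex switches on the late enzymes of the anthocyanin branch. MYBL2 is a small MYB protein that binds the bHLH partner and holds the complex back.

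None of the 7 regulators passed the test between 35S::GRF5 and wild-type seedlings. Of the measured enzyme genes, 2 of 10 early and flavonol-branch genes passed, both lower, and 0 of 5 late anthocyanin genes did. The largest differences among the 7 regulators were those of PAP1, at -0.57 on the log2 scale, MYBL2, at 0.28, and MYB12, at 0.24, each 35S::GRF5 minus wild type. The test was limma's moderated test over all loci with Benjamini-Hochberg adjustment and a threshold of 0.05, which called 0.77% of all loci. At an unadjusted p under 0.05 there were 2 members, beside 15.5% of all loci. MYB12 was the 1 on the higher side, where 9.49% of all loci lay, and PAP1 the 1 on the lower, where 5.97% lay. The median difference of the 7 members was -0.0047, beside 0.024 over all loci.

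The arrays and tissue bear on how these values can be read. GRF5 itself read 11.34, 11.42 and 12.08 in 35S::GRF5 replicates 1 to 3, against 4.73, 4.75 and 4.26 in wild-type replicates 1 to 3, on the log2 scale. The 2 measured green leaf markers, the Rubisco activase gene RCA and the antenna gene LHCA1, read 14.08 to 14.32 in all arrays, and 4 other listed leaf markers were not analysed here. Markers of organs that the vegetative part should lack, 5 of roots, 4 of flowers and 4 of seed reserves, read 3.37 to 5.15. The top of that range was the flower marker SEP3 in wild-type replicate 2. SEP3 differed by -0.44 without overlap of the groups (limma adjusted p = 0.178). The highest value of any other of these markers was 4.95, for EXPA7 in 35S::GRF5 replicate 2. No detection calls were used, so a level in the range of 3.37 to 5.15 cannot be told from background. RNA of the whole vegetative part also cannot separate fewer cells that express a gene from less RNA per cell.

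**Figure D1:**
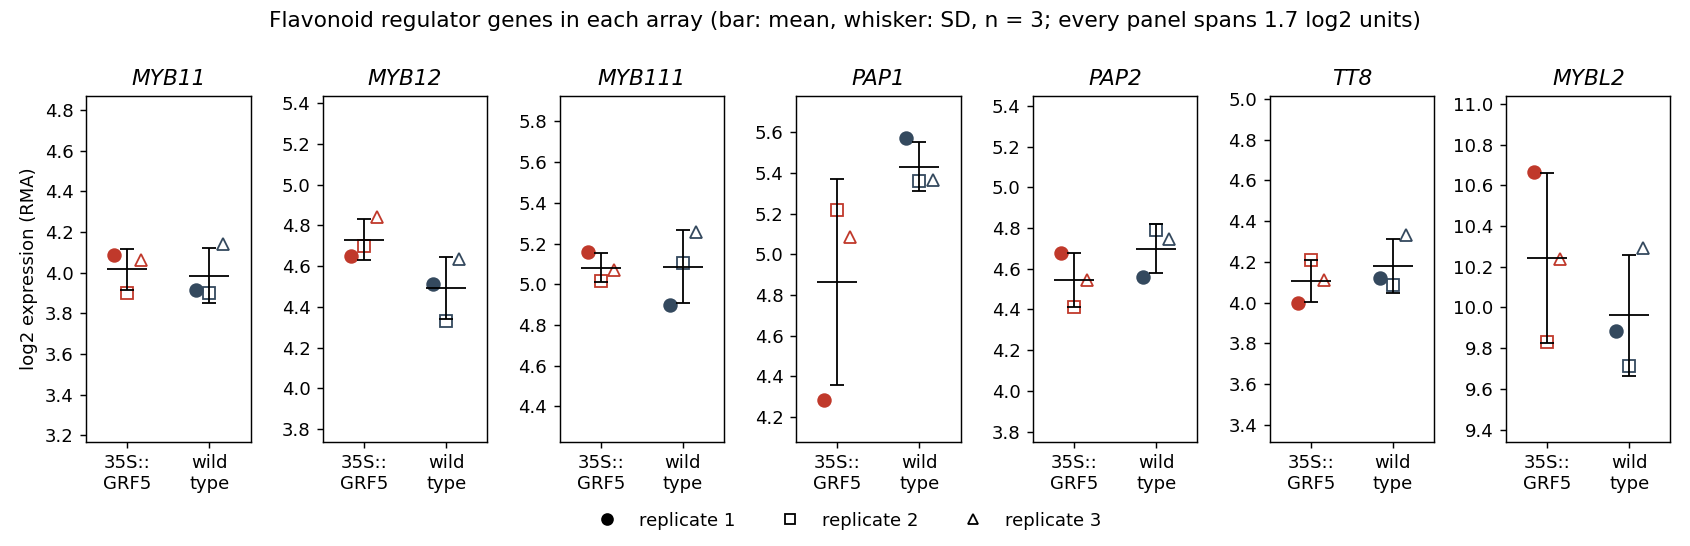
Log2 expression of the 7 regulator genes in each array, 35S::GRF5 left and wild type right in every panel, with symbols for the replicate, a bar for the mean and whiskers for the SD (n = 3). Every panel spans the same number of log2 units, so the spread of PAP1 and MYBL2, both with 35S::GRF5 replicate 1 at an extreme (4.29 and 10.67), can be compared with that of the others.

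Of the flavonol activators, MYB12, the main activator of flavonol synthesis in roots, had the largest difference. It read 4.65, 4.70 and 4.84 in 35S::GRF5 replicates 1 to 3, against 4.51, 4.33 and 4.64 in wild-type replicates 1 to 3. All 35S::GRF5 values were above all wild-type values, but the lowest of the first, 4.65, stood next to the highest of the second, 4.64. Groups did not overlap in the same direction for 13.2% of all loci. With n = 3 per group the difference was 0.24 (95% interval 0.0027 to 0.47) or 1.18-fold, with an unadjusted p of 0.0479 and a limma adjusted p of 0.319.

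MYB111, which acts mainly in cotyledons, read 5.16, 5.01 and 5.07 in 35S::GRF5, against 4.90, 5.11 and 5.25 in wild type. The 35S::GRF5 values lay wholly within the wild-type range, and the difference was -0.0047 (-0.25 to 0.24, limma adjusted p = 0.988). MYB11, the third activator of the trio, read 4.09, 3.90 and 4.06 in 35S::GRF5, against 3.92, 3.90 and 4.14 in wild type. Its groups overlapped too, with a difference of 0.03 (-0.20 to 0.26, limma adjusted p = 0.914). All MYB11 and MYB12 values lay within the range of the root, flower and seed markers, and so did 4 of the 6 MYB111 values. Of those 4, only that of wild-type replicate 1 lay below 4.95, the highest marker value other than SEP3. The intervals of MYB11 and MYB111 reached no farther than 0.26 log2 units to either side of 0.

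Whether the members of this trio differ from each other in their response was tested on the log2 difference between 2 members within each array. MYB12 read below MYB111 in both groups, and MYB12 minus MYB111 was higher by 0.24 in 35S::GRF5 than in wild type (95% interval from a t distribution -0.15 to 0.63, two-sided p = 0.2 by exact permutation test). MYB11 minus MYB12 gave -0.21 (-0.45 to 0.04, exact p = 0.2) and MYB11 minus MYB111 gave 0.04 (-0.17 to 0.24, exact p = 0.6). With PAP1 against PAP2 these made 4 pairs, and adjusted over them the smallest p was 0.4. With 3 arrays against 3 the smallest p this test can give is 0.1, so it cannot pass the threshold.

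Among the anthocyanin activators the differences were negative in all 3 genes and largest in PAP1, whose gain of function turns plants purple. Over all loci 56.2% of the differences were positive. PAP1 read 4.29, 5.22 and 5.09 in 35S::GRF5 replicates 1 to 3, against 5.57, 5.36 and 5.36 in wild-type replicates 1 to 3. Every 35S::GRF5 value was below every wild-type value, as for 8.45% of all loci in that direction, and replicate 1 of the line was far below its other replicates. The mean was 4.86 ± 0.51 in 35S::GRF5 and 5.43 ± 0.12 in wild type (SD, n = 3 each). The difference of -0.57 (95% interval -1.03 to -0.10) is a factor of 0.675, with an unadjusted p of 0.0223 and a limma adjusted p of 0.231. Without 35S::GRF5 replicate 1 the difference was -0.28 (adjusted p = 0.25), and without any other single array it was -0.74 to -0.50.

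PAP2, the closest relative of PAP1 among the members, read 4.68, 4.41 and 4.55 in 35S::GRF5, against 4.56, 4.79 and 4.75 in wild type. The groups overlapped through 35S::GRF5 replicate 1, here the highest of the line, and wild-type replicate 1. The difference was -0.15 (-0.39 to 0.08, limma adjusted p = 0.525). PAP1 minus PAP2 changed by -0.41 between the groups (95% interval from a t distribution -1.49 to 0.67, two-sided p = 0.4 by exact permutation test), and by -0.06 without 35S::GRF5 replicate 1.

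TT8, the bHLH partner, read 3.999, 4.21 and 4.11 in 35S::GRF5, against 4.12, 4.09 and 4.33 in wild type. The groups overlapped and the difference was -0.08 (-0.30 to 0.15, limma adjusted p = 0.775). Without wild-type replicate 3 it was 0.0002. All PAP2 and TT8 values, like those of MYB11 and MYB12, lay within the range of the root, flower and seed markers, while all wild-type PAP1 values and 1 of its 3 values in 35S::GRF5 lay above it. The PAP1 value of 35S::GRF5 replicate 3, 5.09, lay within it only through SEP3.

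MYBL2, the repressor, was the member with a signal far above that range. It read 10.67, 9.83 and 10.24 in 35S::GRF5 replicates 1 to 3, against 9.88, 9.71 and 10.29 in wild-type replicates 1 to 3. The groups overlapped, with the highest value of all in 35S::GRF5 replicate 1 and the lowest in wild-type replicate 2. The difference was 0.28 (-0.18 to 0.74), a factor of 1.22, with a limma adjusted p of 0.561. With single arrays left out it ranged widely. It was 0.07 when 35S::GRF5 replicate 1 was dropped and 0.49 when replicate 2 of that line was, and dropping wild-type replicate 2 gave 0.16 and replicate 3 of that group 0.45.

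The members differed in how much replicates varied. The pooled within-group SD was 0.37 for PAP1 and 0.36 for MYBL2, and 98.5% and 98.4% of all loci had a smaller one. For the other 5 members it was 0.12 to 0.14, and 45.6% to 57.2% of all loci had a smaller one. Most of the PAP1 spread came from the line, where the SD was 0.51, against 0.12 in wild type. PAP1 and TT8 had their lowest value, and MYBL2 its highest, in 35S::GRF5 replicate 1. That array had 20.3% of all loci at their lowest value and 25.9% at their highest, and it lay farthest from its group mean over all loci (root mean square deviation 0.162, against 0.101 to 0.138 in the other 5). The part of this array's overall deviation in the member values was not tested.

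MYB11, MYB111 and TT8 had their highest value in wild-type replicate 3, as did 15.3% of all loci. In that array all 8 touch and rapid stress markers had their highest value too, with a list mean of 7.38, against 5.75 to 6.10 in the other 5 arrays. Without it MYB11 differed by 0.11, MYB111 by 0.08 and MYB12 by 0.31, and none of the members passed (lowest limma adjusted p of the 7 members 0.331). The part of touch-related changes in these values was not tested.

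**Figure D2:**
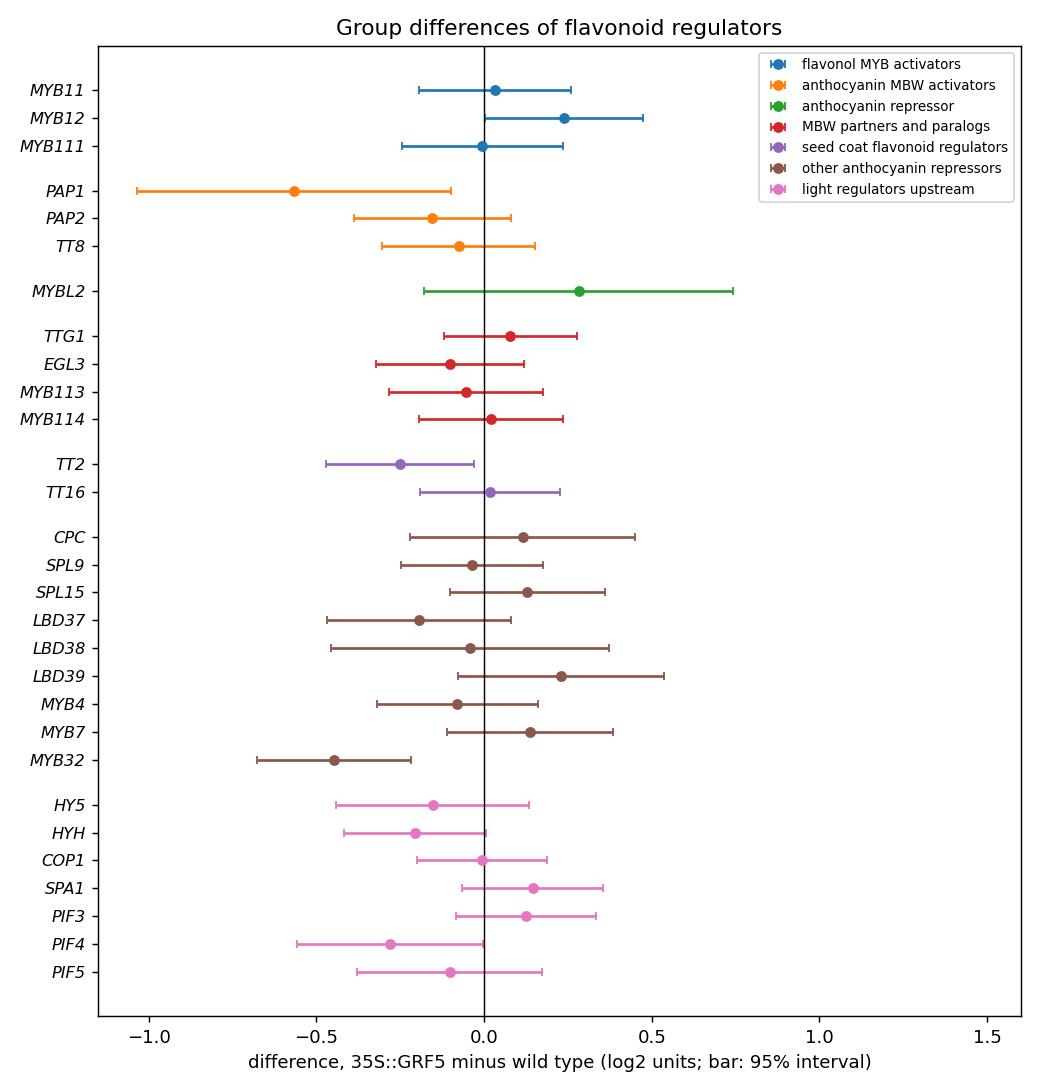
Difference between 35S::GRF5 and wild type in log2 units for the 7 members and 22 other regulators of the pathway, grouped by role; points are differences of group means and bars their 95% intervals from limma (n = 3 per group). The intervals of MYB12 (0.0027 to 0.47) and PAP1 (-1.03 to -0.10) are the ones among the members that leave out 0, before adjustment for the number of loci. This depends on limma's moderated variance: by a t test with each gene's own variance the unadjusted p was 0.0878 for MYB12 and 0.132 for PAP1.

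The partners and close relatives of the anthocyanin activators showed no difference past the limma threshold, and 0 of the 4 measured had an unadjusted p under 0.05. TTG1, the WD40 protein of the complex, read 8.20 to 8.36 in 35S::GRF5 and 8.12 to 8.23 in wild type, and differed by 0.08 (-0.12 to 0.28, limma adjusted p = 0.728). EGL3, a bHLH protein that can stand in for TT8, differed by -0.10 (-0.32 to 0.12, limma adjusted p = 0.671); GL3, the other such bHLH gene, was not analysed here. MYB113 and MYB114, relatives of PAP1 that follow each other in a row with PAP2 on chromosome 1, differed by -0.05 and 0.02 (limma adjusted p = 0.845 and 0.942). All EGL3 and MYB114 values lay within the range of the root, flower and seed markers, and all TTG1 and MYB113 values above it. No map from probes to loci was used here, so signal shared among PAP1, PAP2, MYB113 and MYB114 could not be checked.

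Across all 22 other measured regulators, which include repressors and light signalling genes, 0 were called by limma. An unadjusted p under 0.05 was found for 3, beside 15.5% of all loci in either direction. All 3 were on the lower side, where 5.97% of all loci lay. Their median difference was -0.04, beside 0.024 over all loci. MYB32, an R2R3-MYB gene of the repressor subgroup that also holds MYB4, came nearest to the threshold. It read 5.11, 4.79 and 4.9999 in 35S::GRF5 replicates 1 to 3, against 5.34, 5.46 and 5.45 in wild-type replicates 1 to 3. All 3 values of the line, but none of wild type, lay within the range of the root, flower and seed markers. Those of replicates 1 and 3 of the line did so only through SEP3. The groups did not overlap, and the difference was -0.45 (-0.68 to -0.22, limma adjusted p = 0.0877), a value that none of the alternatives brought under 0.05. PIF4, a bHLH factor of light and temperature signalling, differed by -0.28 (-0.56 to -0.0042, limma adjusted p = 0.317). HY5, the bZIP factor that switches on flavonoid genes in light, differed by -0.15 (-0.44 to 0.13, limma adjusted p = 0.623). All HY5 values except that of wild-type replicate 2 lay within the marker range, those of replicate 1 in each group only through SEP3.

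Of the enzyme genes downstream of the flavonol activators, 2 of 10 measured were called lower. FLS1, flavonol synthase, read 6.995, 7.14 and 7.10 in 35S::GRF5 replicates 1 to 3, against 7.68, 7.79 and 7.78 in wild-type replicates 1 to 3. F3H, flavanone 3-hydroxylase, read 7.32, 7.35 and 7.30 in 35S::GRF5, against 8.01, 7.88 and 8.05 in wild type. Both fell, with the groups far apart and all 3 arrays of the line alike; the differences were -0.67 and -0.66 (limma adjusted p = 0.0137 and 0.0138), while 0.486% of all loci were called lower. Leaving out wild-type replicate 1 or 3 ended both calls, and leaving out 35S::GRF5 replicate 3 ended that of F3H (adjusted p 0.0503 to 0.0899). The list's median difference was -0.35, and 9 of its 10 genes were negative, while 56.2% of all loci were positive. At an unadjusted p under 0.05 in limma there were 6, all on the lower side, where 5.97% of all loci lay. Groups did not overlap in 7 genes on the lower side and 1 on the higher, beside 8.45% and 13.2% of all loci. None of MYB11, MYB12 and MYB111 passed the threshold in either direction, and all MYB11 and MYB12 values lay within the marker range given above. Whether the flavonol activators had a part in the lower enzyme values was not tested.

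Of the late enzymes of the anthocyanin branch, the targets of the PAP1 complex, 5 were measured and 0 were called. LDOX, another gene of the late list, was not analysed here, so the 5 do not cover the whole branch. All 5 differences were negative, with a median of -0.56, while 56.2% of all loci were positive. At an unadjusted p under 0.05 there were 3, all on the lower side, where 5.97% of all loci lay. DFR, dihydroflavonol reductase, the first enzyme of the branch, read 5.79, 7.08 and 7.09 in 35S::GRF5 replicates 1 to 3, against 8.10, 7.502 and 7.86 in wild-type replicates 1 to 3. UGT79B1, which adds a sugar to anthocyanins, read 5.72, 6.91 and 6.73 in 35S::GRF5, against 7.24, 6.95 and 7.07 in wild type. In both genes 35S::GRF5 replicate 1 was lowest, and the groups did not overlap, as for 8.45% of all loci in that direction. DFR differed by -1.17 (-1.86 to -0.48, limma adjusted p = 0.124) and UGT79B1 by -0.63 (-1.21 to -0.06, limma adjusted p = 0.275). Without 35S::GRF5 replicate 1 they differed by -0.74 and -0.27 (limma adjusted p = 0.0776 and 0.300).

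**Figure D3:**
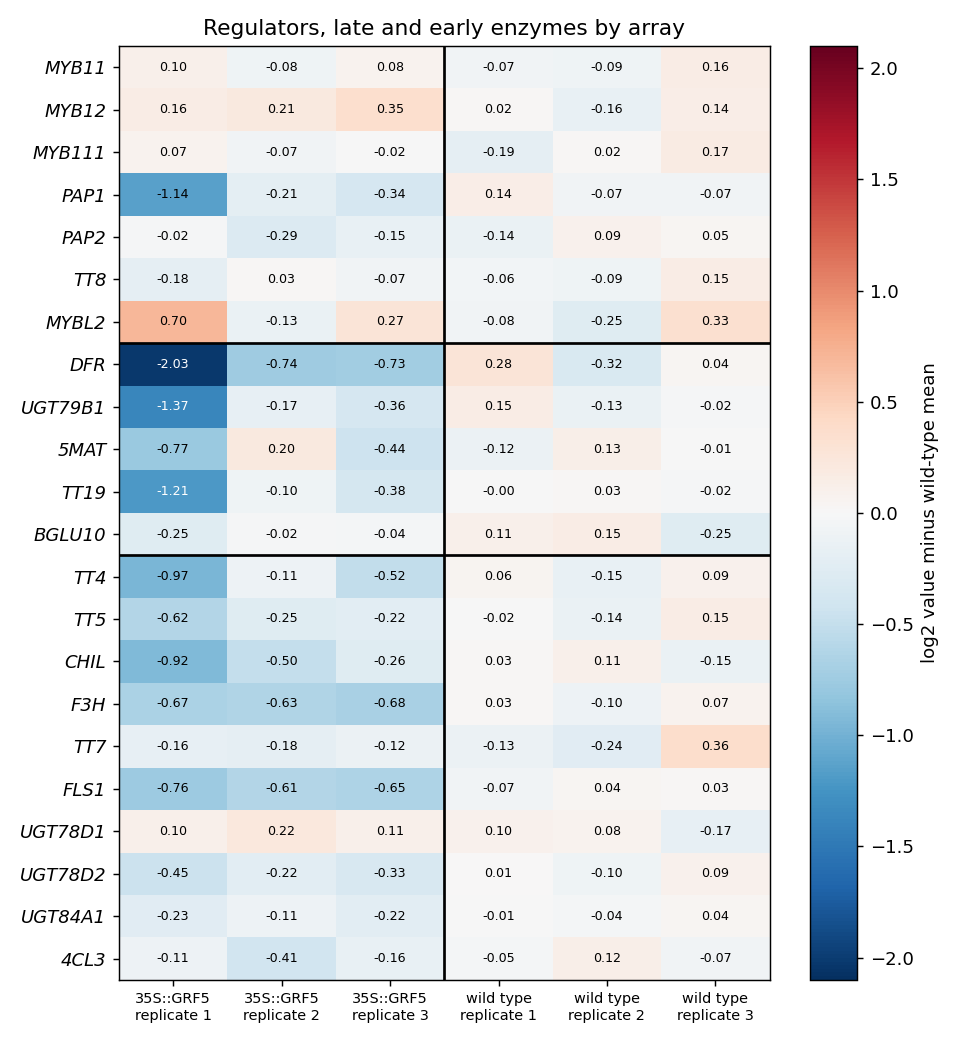
Log2 value minus the wild-type mean of the gene, for each array (columns, 35S::GRF5 left and wild type right) and for the 7 regulators, 5 late and 10 early enzymes (rows, in blocks from top to bottom). FLS1 and F3H are lower in all 3 arrays of the line by 0.61 to 0.76 log2 units, and the flavonol activators stay within 0.35 of the wild-type mean. PAP1, DFR, UGT79B1 and TT19 are lowest in 35S::GRF5 replicate 1, but DFR is also at -0.74 and -0.73 in replicates 2 and 3 of the line.

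In the late list 4 of 5 genes, and in the early list 6 of 10, had their lowest value in 35S::GRF5 replicate 1, beside 20.3% of all loci. The mean of the late list was 6.17, 7.13 and 6.91 in 35S::GRF5 replicates 1 to 3, against 7.38, 7.27 and 7.24 in wild-type replicates 1 to 3. The mean of the early list was 7.13, 7.33 and 7.31 in 35S::GRF5, against 7.61, 7.57 and 7.66 in wild type. The late list therefore spanned 6.17 to 7.13 among arrays of the line, and the early list 7.13 to 7.33.

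For each member the 3 loci whose values over the 6 arrays were most alike were found by Pearson correlation among the other 20776 loci. The correlations describe 6 arrays that share the group difference and any effect of single arrays. For PAP1 the most similar locus of all was UGT79B1 (r = 0.996, Spearman rho = 1), followed by BRS1 (AT4G30610) and AT3G23600 (both r = 0.995). The order of the 6 arrays was therefore the same for PAP1 and UGT79B1. Further genes were looked up after the values were seen: TT19, a glutathione transferase needed to store anthocyanin in the vacuole, was in place 31 (r = 0.978) and DFR in place 42 (r = 0.974). Of the early list, the chalcone synthase gene TT4 was in place 131 (r = 0.947), while FLS1 and F3H were in places 1629 and 2104 (r = 0.749 and 0.696).

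PAP1 and these anthocyanin genes shared their lowest value in 35S::GRF5 replicate 1, so the correlations were recomputed on the 4 arrays left without the pair farthest from the PAP1 median, 35S::GRF5 replicate 1 and wild-type replicate 1. The correlation with PAP1 was then 0.935 for UGT79B1, 0.956 for TT19, 0.842 for DFR and 0.863 for TT4. FLS1 and F3H reached 0.926 and 0.917 and the early-list gene UGT84A1 0.961, so over these arrays they were no less like PAP1 than DFR was. These 4 arrays still share the group difference, and the correlations of all loci over them were not computed. Between the 6 and the 4 arrays PAP2 moved from -0.07 to 0.728 and TT8 from 0.586 to 0.412. Of the 5 late genes BGLU10 was the least alike, with 0.613 over the 6 arrays and -0.07 over those 4. The median correlation of the late list with PAP1 was 0.974, against -0.09 with PAP2, 0.628 with TT8 and -0.837 with MYBL2, while the median over all loci was -0.08 with PAP1 and 0.031 with MYBL2. The opposition to MYBL2 also depended on single arrays: over the 4 arrays left without 35S::GRF5 replicate 1 and wild-type replicate 2, the correlation with MYBL2 was 0.0030 for DFR, -0.354 for UGT79B1, -0.400 for TT19, -0.551 for 5MAT and -0.746 for BGLU10.

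**Figure D4:**
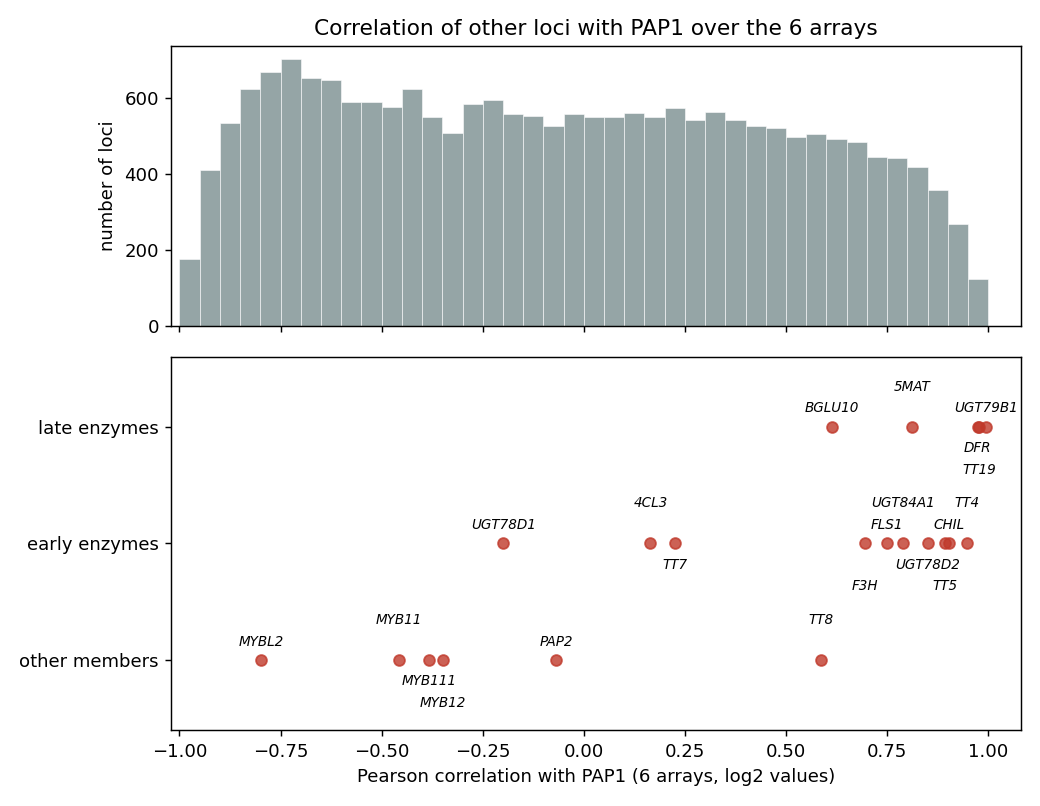
Pearson correlation with PAP1 over the 6 arrays, as a histogram of all other loci (top, number of loci per class) and for the late enzymes, early enzymes and other members (bottom, 1 point a gene). UGT79B1 is at 0.996, TT19 at 0.978 and DFR at 0.974, and MYBL2 is the member farthest to the left at -0.797; correlations over 6 arrays spread widely for all loci.

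The other members had their closest loci outside the pathway lists. For MYB12 these were AT5G63520 (r = 0.991), JAL22 (AT2G39310, 0.988) and ATAUX2-11 (AT5G43700, 0.983), for MYB111 AT4G36750 (0.999), AT2G02680 (0.988) and AT1G19330 (0.987), and for MYB11 AT4G13190 (0.992), AT5G25340 (0.985) and AT3G25130 (0.984). For PAP2 they were AT5G65580, HTR12 (AT1G01370) and HPL1 (AT4G15440), with r of 0.983 to 0.984, and for TT8 ATBRXL2 (AT3G14000), ATMG01400 and SWI3A (AT2G47620), with r of 0.990 to 0.991. For MYBL2 they were AT3G60730 (0.995), AT3G45910 (0.994) and AT1G43900 (0.990). Among the members themselves, MYBL2 was most alike MYB11 (r = 0.870) and most opposed to PAP1 (r = -0.797). That opposition rested on 35S::GRF5 replicate 1: over the 4 arrays left without it and wild-type replicate 1 the correlation of MYBL2 with PAP1 was -0.278, and without it and wild-type replicate 2 it was -0.357.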

How the data were processed

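Per the labels, total RNA of 6 samples was hybridised to ATH1 arrays. The deposited log2 values come from RMA (background correction, normalization and summary over probes), which the submitters' processing notes name; its version, the probe map and the arrays normalised together are not given in the sources used here. Each row is a locus, with no missing value. Names came from RefSeq's table for TAIR10.1 (20508 of 20777 loci found). Its coordinates were used only for the order of genes along a chromosome, because the build behind the values is not given. Groups were taken from sample titles and compared in R 4.3.3 by limma 3.58.1 (eBayes after lmFit, two-sided, Benjamini-Hochberg over all loci, 95% intervals), without a low-value filter. The number of arrays limits the precision. Pairs of members were compared by exact permutation in SciPy 1.17.1, and their 95% intervals came from a t distribution with pooled variance.

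Of 84 list entries, 5 were left out because the reference table does not give the listed name, 8 had no row and 71 were measured. The members and lists were chosen with earlier results of these data known. Named were all members, regulators from the lists, called enzymes or otherwise the 2 with the smallest p of a list, and the 3 most alike loci of each member. Outside this rule TT4, UGT84A1, TT19, 5MAT, BGLU10, TT12 and TT15 were named too, as were GRF5 and some markers. Same-numbered replicates did not deviate together (correlations -0.106 to 0.058), so no block was used. Alternatives were a replicate block, filters on low values, centring, quantile normalization, other variance models, array weights and leaving out each array. The fit was tested on simulated data.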

Additional observations from a re-analysis of the deposited data

How the results depend on the processing

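No member passed limma's threshold in any of 90 refits under the alternatives (14 settings, with members under a low-value filter left out: 5 of 7 remain above the 25th percentile of mean level and 1 above the median). With a replicate block the count of called members was 0 and that of early enzymes 2, PAP1 having an adjusted p of 0.263; the replicate numbers are shared only as names, and the block moved no call among the named genes. Adjusted p over the alternatives ran from 0.173 to 0.514 for PAP1, 0.208 to 0.619 for MYB12, 0.302 to 0.886 for MYBL2 and 0.345 to 0.772 for PAP2, and these 4 kept their direction. Differences close to 0 changed sign: MYB11 was -0.0065 with centred arrays and -0.012 to 0.11 with an array left out, MYB111 was 0.034 with array weights and -0.099 to 0.080, TT8 was -0.13 to 0.00017, MYB113 was 0.0081 with array weights and -0.13 to 0.0090, MYB114 was -0.017 with centred arrays, -0.0086 with array weights and -0.059 to 0.063, BAN was -0.032 to 0.26, and MYB11 minus MYB111 was -0.017 to 0.097 with an array left out. The count of 2 early enzymes called lower was 0 with each gene's own variance, which calls 0 of all loci, and 0 to 2 with an array left out. The 160 calls over all loci became 17 to 186 when single arrays were left out, lowest when wild-type replicate 1 was, and were 252 with trend and robust estimation and 294 with array weights. The lowest adjusted p of MYB32 was 0.0543, with array weights. Most members lay near the bottom of the signal range, which limits what their differences show.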

Other observations

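The seed coat arm of the pathway, which makes the tannins of the seed, was also read in these seedlings, and 0 of its 2 measured regulators and 4 measured enzyme and transport genes were called by limma. TT2, the R2R3-MYB gene of that arm, read 4.18, 3.88 and 3.97 in 35S::GRF5 replicates 1 to 3, against 4.32, 4.22 and 4.25 in wild-type replicates 1 to 3. The groups did not overlap, as for 8.45% of all loci in that direction, and the difference was -0.25 (95% interval -0.47 to -0.03, limma adjusted p = 0.266). Of the 4 enzyme and transport genes 1 had an unadjusted p under 0.05, on the higher side, where 9.49% of all loci lay. That gene, TT10, which encodes a laccase, differed by 0.32 (0.08 to 0.56, limma adjusted p = 0.198), with 4.21, 4.32 and 4.01 in 35S::GRF5 against 3.87, 3.74 and 3.97 in wild type. BAN, anthocyanidin reductase, differed by 0.13 (-0.18 to 0.44, limma adjusted p = 0.698). All TT2, TT10 and BAN values lay within 3.37 to 5.15, the range of the root, flower and seed reserve markers. TT12, a transporter gene, and TT15, a glycosyltransferase gene, lay above that range in all 6 arrays, at 5.56 to 5.998 and 7.77 to 7.88.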
